A study of Mus musculus with 6 samples.

Results

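The deposited list of genomic intervals carrying H3K4me3 in day 2 PGCLCs, mouse germ cell-like cells made in culture, is described here. All 27954 intervals on chromosomes 1 to 19 were taken, out of 29072 in the H3K4me3 list and 33403 with an HA-Tex10 list added. PGCLCs are derived from pluripotent cells and model primordial germ cells, from which eggs and sperm descend. The series has 2 H3K4me3, 2 HA-Tex10 and 2 input DNA samples, all untreated and of strain 129Sv/J. In these cells Tex10 carries an HA tag at its C terminus, as the series' design text states for all cells of the series. Whether the cells were sorted, and how many clones or cultures they came from, is not given in the sources used here. The H3K4me3 list is a single list for both samples and holds positions only, with no score, so no value of a single sample and no spread between samples can be given. For the same reason no difference below was tested over samples. The antibody was Abcam's against H3K4me3, and the labels do not say whether both samples came from separate cultures. The sequencing depth is unknown, and percentages in brackets below give Wilson 95% intervals that cover the counting of genes or intervals only, while ranges in bp, kb or ratio are interquartile. In a bulk sample, fewer cells with the mark and less mark per cell cannot be told apart.

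H3K4me3 is histone H3 trimethylated on lysine 4, a mark laid down at promoters by the SET1 and MLL methyltransferase complexes. Some of these complexes bind unmethylated CpG dinucleotides, and CpG islands are known to carry the mark even where transcription is low. In pluripotent cells many developmental genes carry it together with the repressive mark H3K27me3, so an interval shows that the mark was detected, not that the gene was expressed. Wide stretches of the mark are known from genes of cell identity.

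Promoters of 6 genes show the range of sequence behind the map. Each line gives the 250 bases upstream of a RefSeq start, 5′ to 3′ on the gene's strand, with CpG dinucleotides in capitals. They were chosen to set marked beside unmarked promoters at high and low CpG content, and a gene with alternative promoters is included. A promoter or gene is called marked here if an interval came within 1 kb of a transcription start site (TSS). Sox2 (chr3:34649745-34649994, plus strand, marked) and Pou5f1 (chr17:35505782-35506031, plus strand, marked) encode pluripotency factors. Ddx4 (chr13:112652311-112652560, minus strand, unmarked) encodes a germ cell RNA helicase and Dazl (chr17:50293621-50293870, minus strand, unmarked) a germ cell RNA-binding protein. Alb (chr5:90460620-90460869, plus strand, unmarked) encodes serum albumin, a liver protein. Dnmt1 encodes the maintenance DNA methyltransferase, and its upstream promoter (chr9:20959889-20960138, minus strand, unmarked) and downstream promoter (chr9:20952980-20953229, minus strand, marked) are both shown. Sequences are from RefSeq on GRCm38.p6.
Sox2: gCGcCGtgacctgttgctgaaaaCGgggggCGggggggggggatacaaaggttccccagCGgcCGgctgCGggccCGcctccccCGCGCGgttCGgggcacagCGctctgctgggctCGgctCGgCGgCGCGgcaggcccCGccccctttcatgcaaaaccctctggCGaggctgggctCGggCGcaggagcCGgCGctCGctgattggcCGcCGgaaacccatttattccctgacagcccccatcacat
Pou5f1: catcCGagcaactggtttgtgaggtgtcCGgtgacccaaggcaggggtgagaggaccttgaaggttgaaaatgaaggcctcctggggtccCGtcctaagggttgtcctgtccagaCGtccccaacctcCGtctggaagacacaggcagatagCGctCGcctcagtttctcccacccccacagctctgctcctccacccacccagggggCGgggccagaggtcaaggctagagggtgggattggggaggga
Ddx4: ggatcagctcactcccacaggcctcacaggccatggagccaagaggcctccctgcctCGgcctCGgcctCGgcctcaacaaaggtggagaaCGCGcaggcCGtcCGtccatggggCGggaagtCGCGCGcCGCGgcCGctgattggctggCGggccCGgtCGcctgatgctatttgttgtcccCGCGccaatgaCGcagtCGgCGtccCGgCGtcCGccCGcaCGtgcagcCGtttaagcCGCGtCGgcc
Dazl: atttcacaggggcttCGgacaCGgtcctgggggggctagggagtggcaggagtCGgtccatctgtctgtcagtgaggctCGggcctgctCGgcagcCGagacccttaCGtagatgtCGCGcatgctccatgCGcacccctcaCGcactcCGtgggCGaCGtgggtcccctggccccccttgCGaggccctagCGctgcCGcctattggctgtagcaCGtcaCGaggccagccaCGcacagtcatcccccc
Alb: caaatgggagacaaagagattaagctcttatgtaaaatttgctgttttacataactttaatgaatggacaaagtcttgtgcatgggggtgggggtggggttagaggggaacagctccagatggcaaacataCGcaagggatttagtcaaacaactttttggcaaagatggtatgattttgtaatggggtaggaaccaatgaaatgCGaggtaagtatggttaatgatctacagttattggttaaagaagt
Dnmt1 upstream: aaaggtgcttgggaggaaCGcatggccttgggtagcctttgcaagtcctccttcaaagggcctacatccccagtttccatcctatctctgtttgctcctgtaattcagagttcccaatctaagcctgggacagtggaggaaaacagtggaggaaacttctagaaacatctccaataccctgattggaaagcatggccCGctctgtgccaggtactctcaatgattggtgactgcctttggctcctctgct
Dnmt1 downstream: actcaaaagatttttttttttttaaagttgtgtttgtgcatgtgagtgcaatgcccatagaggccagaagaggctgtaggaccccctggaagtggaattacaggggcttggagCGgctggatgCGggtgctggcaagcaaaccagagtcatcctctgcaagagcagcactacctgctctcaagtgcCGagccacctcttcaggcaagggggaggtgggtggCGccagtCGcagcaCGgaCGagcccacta

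The Sox2 stretch holds 27 CpG dinucleotides, and the Ddx4 and Dazl stretches hold 31 and 20. The Pou5f1 stretch holds 8, the downstream Dnmt1 stretch 7, and the Alb and upstream Dnmt1 stretches 2 each. RefSeq gives 2 starts for Pou5f1 and 3 for Dnmt1. Only the most upstream one of Pou5f1 and the 2 most upstream of Dnmt1 are shown. Among 19167 RefSeq promoters of coding genes, the median was 11. Sox2 and Pou5f1 were thus marked on either side of that median, while Ddx4 and Dazl lay above it and were unmarked, with the nearest intervals 8058 bp and 102888 bp from their RefSeq starts.

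Most intervals were narrow. The median width was 720.5 bp (interquartile range 372 to 1327 bp), the narrowest interval was 1 bp and the widest 10467 bp, and together they covered 27.1 Mb, or 1.10% of these chromosomes. Intervals under 1 kb made up 63.2% of the list. The 2929 intervals of 2 kb or more were 10.5% of the list and held 30.2% of its bases. There were 382 intervals under 50 bp, which is less than the DNA of a single nucleosome.

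Of the 27954 intervals, 14565 (52.1%, 51.5 to 52.7%) lay within 1 kb of the TSS of a coding transcript, and these held 69.9% of the covered bases. Their median width was 1131 bp (624 to 1743 bp). A further 826 intervals lay at the start of a non-coding transcript of a coding gene, and 809 at the start of a long non-coding RNA gene, with medians of 501 and 601 bp. Away from any annotated start, 6130 intervals were centred between coding genes (21.9%), 3828 in introns (13.7%) and 1220 in exons (4.36%), with medians of 480, 405.5 and 425 bp. The share at a coding TSS rose with width, from 27.6% of the 2796 narrowest intervals (up to 246 bp) to 90.3% of the 2796 widest (2041 bp and over), with the lowest share, 23.8%, in the 2795 intervals of 246 to 324 bp. Many of the other intervals did not flank a promoter: 20.1% (19.5 to 20.8%) of the 13389 had an interval at a coding TSS within 5 kb, and the median distance to one was 31165 bp.

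**Figure D1:**
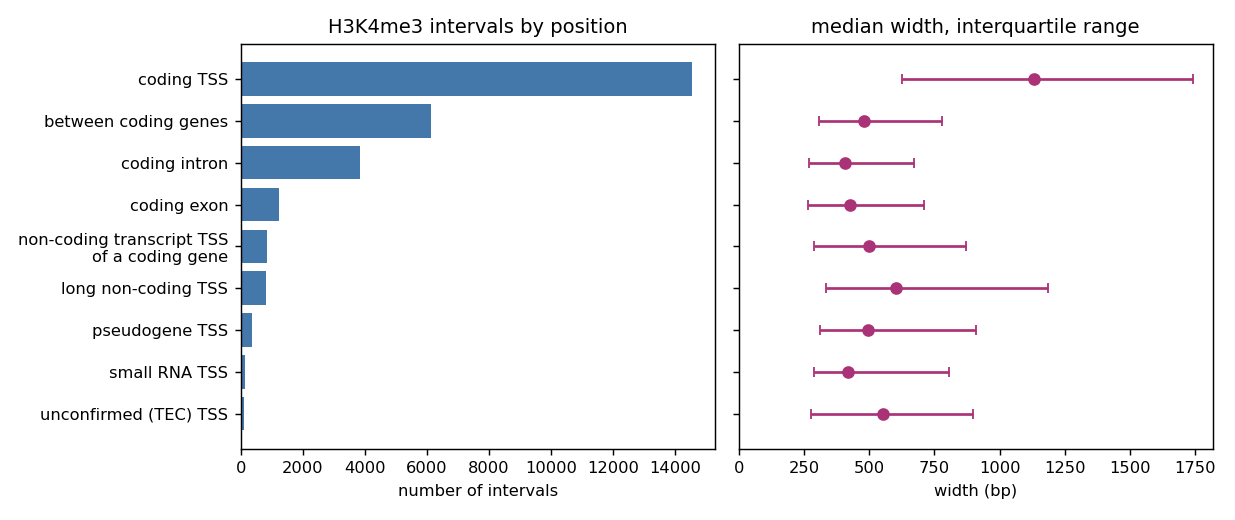
Left, number of H3K4me3 intervals on chromosomes 1 to 19 by position relative to GENCODE M21 genes, for classes with 50 or more intervals. Right, median width in bp, with bars for the interquartile range. Intervals at a coding TSS are both the most numerous (14565) and the widest (median 1131 bp).

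Among 20722 protein-coding genes, 12966 were marked (62.6%, 61.9 to 63.2%). Where an interval covered the first TSS of a marked gene (the most upstream one, 9647 genes), it reached a median of 405 bp upstream and 1000 bp downstream. The difference, downstream minus upstream, had a median of 533 bp, and the downstream side was the longer at 79.5% of these genes. Around the first TSS of all marked genes, coverage peaked 200 bp downstream, at 85.3% of genes. At the TSS itself it was 74.4%, at 500 bp upstream 37.8% and at 500 bp downstream 79.8%.

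The upstream reach differed with the neighbouring gene. At 4870 genes with no TSS of another gene within 5 kb, the interval reached a median of 297 bp upstream (121 to 571 bp) and 997.5 bp downstream (653 to 1383 bp). At 1682 genes with a coding gene starting on the other strand within 2 kb upstream, it reached 1009 bp upstream (641.25 to 1374 bp) and 953 bp downstream (680.5 to 1281.5 bp). The downstream side was longer at 88.6% of the first set and at 46.3% of the second. At 1 kb upstream of the first TSS, 55.8% of the 1969 marked genes with such a neighbour were covered, and 7.77% of the 6811 marked genes with no other TSS within 5 kb.

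**Figure D2:**
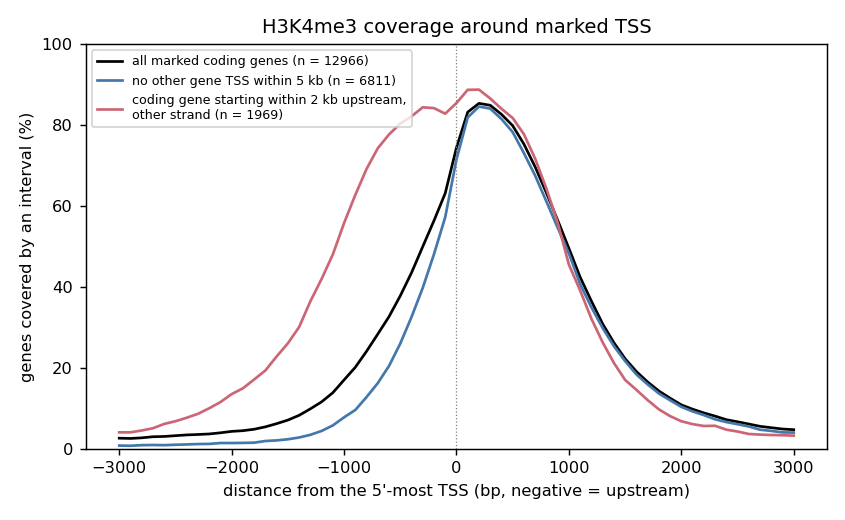
Share of marked coding genes (%) covered by an H3K4me3 interval at each distance in bp from the first TSS, in steps of 100 bp, negative upstream. Lines show all 12966 marked genes, the 6811 with no TSS of another gene within 5 kb and the 1969 with a coding gene starting within 2 kb upstream on the other strand. The last line is the most nearly symmetrical, but it is higher upstream (55.8%) than downstream (45.5%) at 1 kb. At 2 kb it is at 13.5% upstream and 6.81% downstream. The line of genes without neighbours falls from 71.5% at the TSS to 7.77% at 1 kb upstream.

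A single interval was the usual state of a marked promoter. Within 1 kb of the first TSS, 10689 marked genes (82.4%) had 1 interval, 1578 (12.2%) had 2 and 111 had more (108 with 3 and 3 with 4). The other 588 (4.53%) were marked at a later TSS only. Where 2 or more intervals lay at the first TSS (1689 genes, 13.0%), the 1803 gaps between them had a median length of 207 bp (156 to 298 bp). The TSS lay inside 218 of the 447 gaps over 300 bp (48.8%) and inside 324 of the 1356 shorter ones (23.9%). No gap anywhere in the map was shorter than 113 bp.

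Over the whole gene body, 65.9% of marked genes met 1 interval and 33.3% met 2 or more. The latter share was 17.4% (15.6 to 19.4%) for genes up to 5 kb long and 55.5% (53.2 to 57.7%) for genes over 100 kb. The genes with the most intervals are long annotated spans. The largest number, 174, belonged to Gm20388, a model of 4435 kb on chromosome 8 that runs across many other genes. Fgfr2, which encodes a fibroblast growth factor receptor, met 41 over an annotated span of 2961 kb, and Gse1 and Zfhx3, both on chromosome 8, met 32 and 28. Gm42416, Gm37013 and Gm37388, which span the clustered protocadherin genes on chromosome 18, met 37, 34 and 34. There Pcdhga1, Pcdhga2 and Pcdhga3 met 25, 24 and 23. Of the 7756 unmarked genes, 827 (10.7%) met an interval somewhere over the gene.

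Marked and unmarked promoters differed in CpG content. The ratio of observed to expected CpG, measured over 1 kb centred on the first TSS, had a median of 0.73 (0.59 to 0.84) at marked genes and 0.18 (0.11 to 0.30) at unmarked ones. Of 9623 genes with a CpG-rich promoter (ratio 0.6 or more and GC content 50% or more), 9347 were marked (97.1%, 96.8 to 97.4%). Of 7342 with a CpG-poor promoter (ratio under 0.35), 1064 were (14.5%, 13.7 to 15.3%), and of the 3754 between, 68% were. In steps of 0.1 the marked share rose from 4.02% at ratios under 0.1 to 100% of the 374 genes between 1 and 1.1. The widest interval at any TSS of a marked gene had a median of 1492 bp where the first promoter was CpG-rich, 978.5 bp where it was intermediate and 1043.5 bp where it was CpG-poor. Among the marked CpG-poor genes, 594 had an interval at the first TSS and 470 only at a later one.

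**Figure D3:**
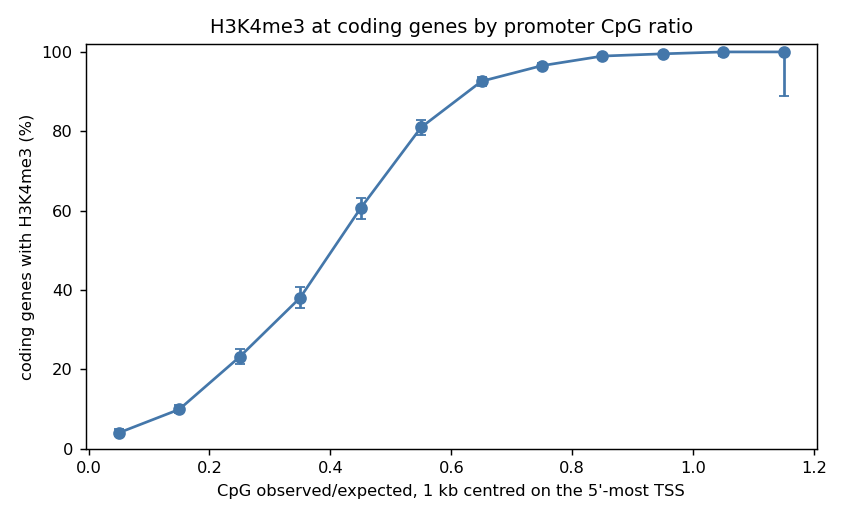
Share of protein-coding genes with H3K4me3 within 1 kb of a TSS (%, bars are Wilson 95% intervals) against the CpG ratio over 1 kb centred on the first TSS, in steps of 0.1. The share climbs from 4.02% to 100%, most steeply between ratios of 0.2 and 0.6.

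Some short promoter motifs also differed in frequency between marked and unmarked promoters. They were searched on both strands in the RefSeq window from 250 bases before to 50 after each start. The window held the TATA box (TATAAA) in 5.69% of 11788 marked promoters and 22.5% of 7379 unmarked ones, and in 12.1% of all. The GC box (GGGCGG) was in 69.0% of marked, 15.2% of unmarked and 48.3% of all promoters, and the E-box CACGTG in 10.3%, 4.42% and 8.05%. The GC box and the E-box each contain a CpG, so their shares are not independent of CpG content. The CCAAT box (CCAAT), which has none, was in 37.5% of marked and 37.6% of unmarked promoters. The TATA box holds only A and T, so its shares are not independent of base composition either. Median GC content of the 250 upstream bases was 61.6% at marked and 47.6% at unmarked promoters.

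The labelled cell type was read against lists of marker genes. In the early germ cell list, 7 of 9 genes were marked (77.8%, 45.3 to 93.7%), a range that holds the 62.6% of all coding genes. Prdm1, which encodes the repressor BLIMP1 that sets germ cell fate, had an interval of 1363 bp at its TSS. Prdm14, a regulator of the germ cell and pluripotency programmes, had one of 1367 bp, and Kit, the receptor for stem cell factor, one of 2101 bp. Tfap2c, which acts with Prdm1, had 2 intervals at its TSS, of 309 and 812 bp. Ifitm3, Dnd1 and Itgb3 had widest intervals of 553, 1351 and 763 bp. The unmarked genes were Dppa3 and Nanos3. The nearest interval to Dppa3, a maternal factor also expressed in germ cells, lay 1029 bp from a TSS, just outside the window, and 2 intervals of 343 and 405 bp fell inside the gene. The nearest to Nanos3, which encodes an RNA-binding protein needed for germ cell survival, lay 3273 bp from its coding TSS and was 1508 bp wide. It came within 1 kb of the start of a small RNA gene. A second interval, of 2213 bp, came within 1 kb of the start of a non-coding transcript of a coding gene. Both fell over the annotated span of Nanos3.

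Pluripotency genes carried the mark at every member of the list, 15 of 15, and over wide stretches. Their widest intervals ranged from 867 bp (Tfcp2l1) to 6675 bp (Sox2) with a median of 2933 bp, and 13 of 15 were 2 kb or wider, beside 24.4% of all marked coding genes, whose median was 1360 bp. Pou5f1, which encodes OCT4, had 1 interval of 6136 bp, from 35503720 to 35509855 on chromosome 17, although its promoter is CpG-poor (ratio 0.33). Nanog (ratio 0.29) had an interval of 2531 bp, and Tdgf1, which encodes a Nodal co-receptor, one of 5399 bp. Sall4, Utf1 and Tbx3 had 4005, 4085 and 3488 bp.

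All 7 primed epiblast genes were marked, 6 of them over 2 kb or more. Otx2, a transcription factor of the epiblast and the forebrain, had an interval of 7855 bp, one of the 10 widest in the map. Nodal, the signalling ligand that keeps the epiblast, had 3923 bp, Fgf5, a ligand used as a marker of the primed state, 3344 bp, Dnmt3b, a de novo DNA methyltransferase, 3072 bp, and Lefty2, a Nodal inhibitor with a CpG-poor promoter (ratio 0.28), 3029 bp. Wnt8a was the narrow exception at 582 bp.

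Lists of other lineages were marked in part and mostly over narrow intervals. Among all coding genes, 62.6% were marked. In the primitive streak and mesoderm list 9 of 11 genes were marked, with a median widest interval of 834 bp. T, the Brachyury gene, had 461 bp and Mixl1 834 bp, whereas Eomes had 2421 bp, and Snai1 and Tbx6 were unmarked. In the endoderm list 9 of 12 were marked (median 682 bp), Sox17 with 2010 bp, Gata6 with 682 bp and Gata4 with 349 bp, while Afp, Ttr and Hnf4a were unmarked. With only intervals at least as wide as the median of the map kept, 4 of the 12 were marked (33.3%), below the 51.3% of all coding genes. The neural list had 9 of 10 (median 1043 bp), from 177 bp at Olig2 to 3181 bp at Sox1, with Neurod1 unmarked. CpG-rich promoters, a class marked at 97.1% of all its genes, belonged to 8 of the 10 neural genes. They also belonged to 8 of the 11 streak and mesoderm genes and to 3 of the 12 endoderm genes. The trophoblast list had 4 of 9. Of 10 fibroblast genes, Fn1 (3540 bp), Twist1 (1391 bp) and Thy1 (304 bp) were marked and the collagen genes Col1a1, Col1a2 and Col3a1 were not. Of 8 blood genes, Tal1 alone was marked, and of 10 adult tissue genes Actn3 alone, with 2203 bp. All 7 adult tissue genes and all 7 blood genes with CpG-poor promoters were unmarked, where 14.5% of all CpG-poor genes were marked.

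Few later germ cell and meiosis genes were marked. Of the 12, 2 had an interval, although 9 of the 12 have CpG-rich promoters, a class in which 97.1% of all genes were marked. Ddx4, Dazl, Mael, Sycp1, Tdrd1, Mov10l1 and Asz1 were CpG-rich and unmarked, at ratios from 0.60 to 0.74 and with the nearest interval 3624 bp (Tdrd1) to 96849 bp (Dazl) from a TSS. Mael, Tdrd1, Mov10l1 and Asz1 act in the piRNA pathway that silences transposons, and Sycp1 encodes a protein of the synaptonemal complex. The marked pair, Sycp3 and Hormad1, had narrow intervals of 506 and 249 bp that lay 456 and 390 bp from the TSS. Stra8, Piwil2 and Tex101, whose promoters are not CpG-rich, were also unmarked. With 9 CpG-rich genes in the list, this is a description of these genes and was not tested.

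**Figure D4:**
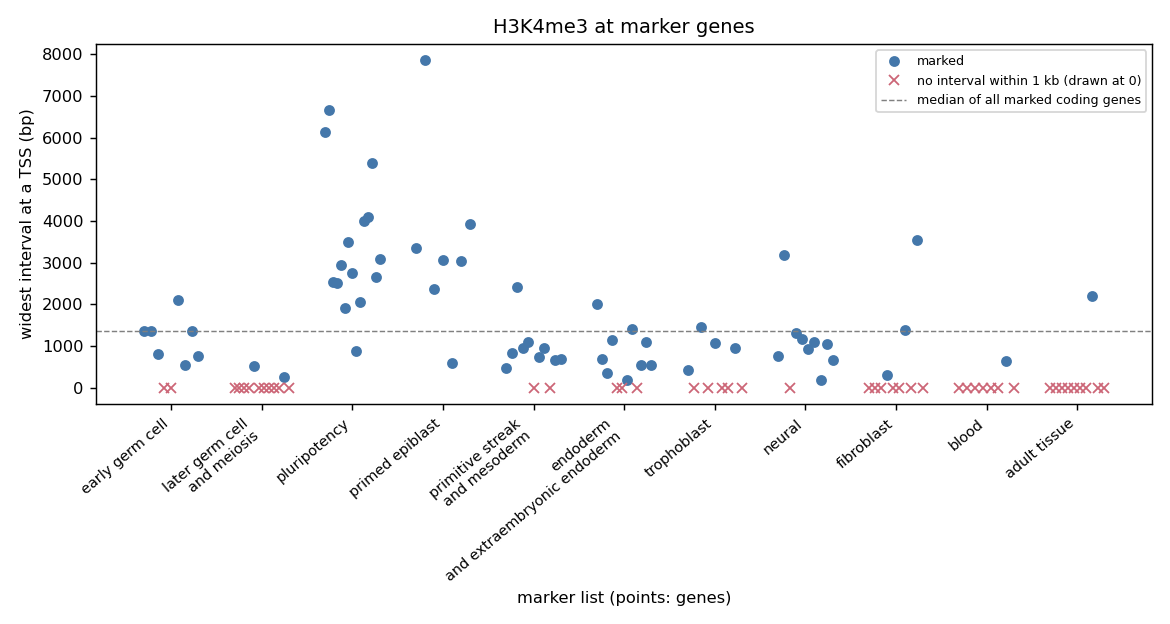
Width in bp of the widest H3K4me3 interval within 1 kb of a TSS for each gene of 11 marker lists. Circles are marked genes, crosses at 0 are genes without an interval, and the dashed line is the median of all marked coding genes, 1360 bp. The pluripotency list has no cross and 13 of its 15 circles at 2 kb or more, and the later germ cell list has 10 crosses.

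In all, 276 genes had a CpG-rich promoter and no interval within 1 kb, and the nearest interval lay a median of 40.1 kb away (14.1 to 87.5 kb). An interval met 62 of these genes elsewhere in the gene. The names in this paragraph were picked after the values were seen. Other genes of meiosis among them were Spo11, which makes the breaks that start recombination, Sycp2, Smc1b, Rnf212 and Tex12. Hoxa2, Hoxa3, Hoxa11, Hoxb5, Hoxc8, Hoxd10 and Lhx5 were developmental regulators in the same set. Drd2, Gria2, Grik2, Slc32a1 and Kcnj6 encode receptors, a transporter and a channel of neurons.

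Gene families ran from no marked member to all. Several families had few marked members or none, beside 62.6% of all coding genes and 14.5% of those with CpG-poor promoters. A CpG-rich promoter belonged to 0 of 1127 olfactory receptors and 1 of 208 type 1 vomeronasal receptors. The type 2 vomeronasal receptor, defensin, interferon alpha, kallikrein, UDP glucuronosyltransferase and prolactin families had 0 each. Among the sensory receptors, 3 of 1127 olfactory receptors (0.266%, 0.0906 to 0.780%) and 2 of 208 type 1 vomeronasal receptors (Vmn1r4 and Vmn1r48) were marked. None of 119 type 2 vomeronasal receptors, 42 beta-defensins, 22 alpha-defensins, 13 interferon alpha genes, 26 kallikreins, 21 UDP glucuronosyltransferases or 26 prolactin family genes was, which by the Wilson limit allows a share of up to 3.13% for the first and 22.8% for the interferon genes. The marked olfactory receptor genes were Olfr641, Olfr718-ps1 and Olfr94. Of 53 keratin genes 4 were marked (Krt8, Krt10, Krt18 and Krt19), which include Krt8 and Krt18, the keratins of simple epithelia. Of 57 keratin-associated proteins only Krtap28-13 was marked, of 60 serpins Serpinb6a, Serpine2, Serpinh1 and Serpini1, and of 33 interleukins Il7, Il11, Il15, Il17d and Il23a.

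Families that serve every cell were marked throughout. All 78 mitochondrial ribosomal protein genes, 35 complex I subunits, 28 RNA polymerase subunits, 28 Mediator subunits, 34 aminoacyl tRNA synthetases, 15 lysine demethylases and 10 Mcm replication helicase genes had an interval. Of all coding genes 62.6% were marked, and of those with CpG-rich promoters 97.1%. Such promoters belonged to 67 of the 78 mitochondrial ribosomal protein genes, 26 of the 35 complex I genes and 23 of the 28 RNA polymerase genes. They also belonged to 22 of the 28 Mediator genes and 25 of the 34 synthetase genes. Related families had few exceptions. Of 79 cytosolic ribosomal protein genes, the unmarked one was Rpl3l, the muscle paralogue of Rpl3. Of 39 proteasome genes these were Psmb11, of the thymus, and Psmb8, of the immunoproteasome. Of 51 DEAD and DEAH box helicases they were Ddx4 and Dhx58, an innate immune sensor, and of 52 translation initiation factor genes Eif3j2, Eif4e1b, of the oocyte, and Eif4ebp3. Cytosolic ribosomal protein genes had the wider intervals, with a median of 2574.5 bp against 1444.5 bp at mitochondrial ones, both marked at nearly every gene. Of 385 Zfp zinc finger genes 351 were marked (91.2%, 87.9 to 93.6%), although 49.9% have a CpG-rich promoter.

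Most families of developmental regulators lay between, beside 62.6% of all coding genes, except that all 5 Gata genes were marked. Of 39 Hox genes 29 were marked (74.4%, 58.9 to 85.4%) with a median widest interval of 546 bp, and of 19 Wnt ligand genes 14 (73.7%, 51.2 to 88.2%) with 580 bp. The share of all coding genes lay inside both ranges, and Wnt1, Wnt3a, Wnt8b, Wnt10b and Wnt16 were unmarked. Of 15 Tbx genes 11 were marked, of 9 Pax genes 6 and of 20 Fgf ligand genes 14. Of 41 Fox genes 35 were marked, and of 18 Sox genes 16, Sox5 and Sox14 being the exceptions, with wider intervals (medians 1237 and 1721.5 bp). Among 10 Lhx and Isl genes, Lhx3 and Lhx5 were unmarked. Several of these counts rest partly on short intervals. When only intervals at least as wide as the list median were kept, 11 of 39 Hox genes (28.2%) and 4 of 19 Wnt genes (21.1%) were marked, below the 51.3% of all coding genes in that setting. There 2 of 5 Gata genes (40%), 4 of 9 Pax genes, 4 of 10 Lhx and Isl genes and 9 of 20 Fgf ligand genes were marked, also below that share. When the interval had to cover a TSS, 17 Hox genes (43.6%) and 8 Wnt genes (42.1%) were, against 54.3% of all coding genes. Clustered protocadherin genes were marked at 21 of 57 (36.8%).

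At clustered histone genes intervals often lay beside the TSS. Of 67, 64 were marked (95.5%, 87.6 to 98.5%), and the unmarked ones were Hist1h1d and the testis-type genes Hist1h2aa and Hist1h2ba. Yet an interval covered a TSS at 33 of the 64 (51.6%), compared with 86.8% of all marked coding genes, and 41 of the 64 (64.1%) had 2 or more intervals within 1 kb of the first TSS, compared with 13.0%. At the 31 histone genes whose first TSS was uncovered, 23 had intervals on both sides, 7 downstream alone and 1 upstream alone. Histone genes are short and lie close together, and an interval of one gene and an interval of its neighbour cannot be told apart here.

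**Figure D5:**
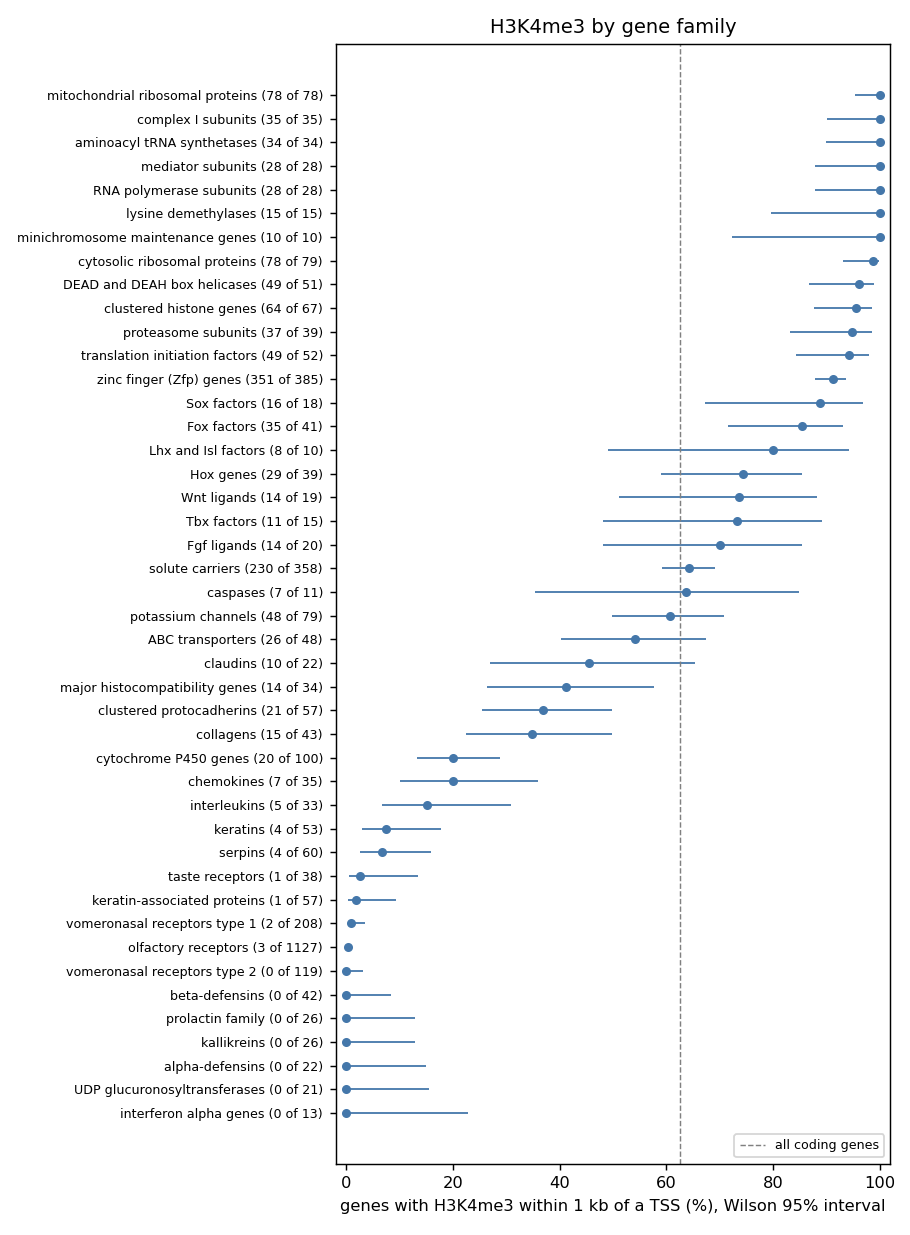
Share of genes with H3K4me3 within 1 kb of a TSS (%) in gene families of 10 or more members on chromosomes 1 to 19, with the number marked and the family size beside each name and bars for Wilson 95% intervals. The dashed line is the share of all coding genes, 62.6%. Olfactory and vomeronasal receptors, defensins and kallikreins sit near 0, and ribosomal protein, complex I and RNA polymerase genes near 100%.

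Alternative promoters of a gene were rarely all marked. TSS of a gene 2 kb or less apart were joined into 1 promoter, and 6228 genes then had 2 or more. Of these, 3739 (60.0%, 58.8 to 61.2%) had some promoters marked and others not, 2007 (32.2%) had none marked and 482 (7.74%) had all marked. In 61 of the 482, an interval was shared between promoters. Where some were marked, the most upstream promoter was marked in 3236 genes (86.5%, 85.4 to 87.6%) and the most downstream one in 432 (11.6%). The marked promoters of these genes had a median CpG ratio of 0.73 and the unmarked ones 0.24, and the mean ratio was higher at the marked promoters in 3630 of 3737 genes (97.1%). Marked promoters also had more annotated starts, a median of 2 against 1. A promoter with more starts has more positions that can lie within 1 kb of an interval, so this difference is partly built into the definition. A start annotated from a single transcript may be a rare or incomplete model, and with basic transcripts only the share with some promoters marked was 46.5%.

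Genes with known alternative promoters showed which start carried the mark. Dnmt1 was unmarked at its upstream promoter, known from the oocyte, with the nearest interval 6571 bp away, and had an interval of 2384 bp at the downstream promoter used in somatic and pluripotent cells (20950934 to 20953317 on chromosome 9). Dnmt3a, a de novo DNA methyltransferase, had 4 of 7 promoters marked, with 2758 bp at the first and 3056 bp at internal ones. Dnmt3l, its cofactor in germ cells, had 2 of 3, the widest (1548 bp) at the middle one. Tet1, which encodes a 5-methylcytosine dioxygenase, had 3 of 6, and the widest, 5112 bp, lay at the fourth. Tet3 was marked at both later promoters and not at the first.

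Esrrb, an orphan nuclear receptor of naive pluripotency, was unmarked at its first promoter (40026 bp to the nearest interval) and had 392 bp at the second and 1917 bp at the third. Nr5a2, another orphan receptor, was likewise unmarked at the first of its 3 promoters and had 2118 and 1414 bp at the later ones. Both promoters of Cdkn2a, which encode the p19Arf and p16Ink4a proteins, were marked, with 2735 and 832 bp. Gnas, an imprinted gene of a G protein subunit, had all 4 promoters marked. Runx1, a blood transcription factor, was marked at its downstream promoter alone, and Mitf, of the pigment cell lineage, at the most upstream of 4. Trp63 and Ppargc1a had no marked promoter, with the nearest intervals 117342 and 177676 bp away.

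Some genes had an unmarked first promoter and a marked one far downstream. At Cntnap2, a neuronal cell adhesion gene on chromosome 6, the first promoter (TSS 45059357) was unmarked and a promoter 1986 kb downstream (TSS 47045060) had an interval of 430 bp. Asic2, which encodes an ion channel, had 815 kb, Zfhx3 760 kb and Ntm 551 kb. The marked promoter had the higher CpG ratio at 9 of the 10 longest shifts, Fgf14 being the exception.

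Most non-coding gene types were marked less often than coding genes, bidirectional-promoter lncRNA genes being an exception, and many had a higher share close to coding TSS. Of 5209 lincRNA genes 733 were marked (14.1%, 13.2 to 15.0%). At the 4550 with no TSS within 5 kb of a coding TSS the share was 8.04% (366 genes), and at the other 659 it was 55.7%. Antisense genes were marked at 32.3% of 2913 overall and at 7.25% of the 1558 away from coding TSS, and bidirectional-promoter lncRNA genes, which by their class share a promoter with another gene, at 89.5% of 190. Processed transcripts were marked at 50.3% of 753, sense-intronic genes at 9.79% of 327, and unconfirmed models (TEC) at 11.2% of 3204 (3.29% of those away from coding TSS). The shares were 15.6% of 2054 miRNA genes (5.53% of those away from coding TSS) and 11.7% of 1442 snoRNA genes (2.94%). Near coding TSS, 45.6% of 517 miRNA genes and 52.6% of 253 snoRNA genes were marked. A TSS here is the annotated 5′ end, which for miRNA and snoRNA genes need not be where transcription starts. Promoters of host genes were not looked up for them. For snRNA genes the share was 4.41% of 1292 (2.07%), and for rRNA genes 5.92% of 321. Of 8924 processed pseudogenes, copies that arose from mRNA and lack the parent promoter, 3.15% were marked (2.74% of those away from coding TSS), and of 1789 unprocessed pseudogenes 3.02%. None of 218 immunoglobulin V genes was marked, with a Wilson upper limit of 1.73%.

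The widest intervals whose only TSS belonged to lincRNA genes were at Rncr4 (5609 bp, 30171396 to 30177004 on chromosome 6) and 2410080I02Rik (4776 bp). Platr10 followed with 4604 bp (75651289 to 75655892 on chromosome 3) at a CpG ratio of 0.077, and 73.0% of this interval is masked as repeated in the reference, against 7.26 to 25.1% of the 9 others among the 10 widest. Platr genes are named as pluripotency-associated transcripts. Lncenc1, named as a lincRNA of embryonic stem cells, had 3571 bp at a ratio of 0.25. Among the 10 widest of these intervals, Platr10 and Lncenc1 were the ones with a ratio under 0.35.

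The 10 widest intervals of the map included 8 at coding genes. Rarg, a retinoic acid receptor gene, had 10202 bp (102239069 to 102249270 on chromosome 15), Trim71, a stem cell RNA-binding ubiquitin ligase gene, 9464 bp, Setd1b, which encodes an H3K4 methyltransferase, 9150 bp, and Sall1, a zinc finger factor, 8057 bp. Otx2 (7855 bp), Ahdc1 (7634 bp), Skil (7477 bp), an inhibitor of SMAD signalling, and Set (7328 bp) followed. The remaining pair, including the widest interval of all (10467 bp, 6297338 to 6307804 on chromosome 3), lay between coding genes in sequence that the reference masks as repeated over 99.7% and 99.4% of its length.

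Repeated sequence made up much of the map away from coding genes. Of the 6130 intervals between coding genes, 51.3% were mostly soft-masked, meaning that lower-case letters of the reference, which mark repeats, covered over 50% of the interval. For intervals at a coding TSS this was 0.934%. The masked intervals between genes were rich in GC (median 62.4%) and had a median CpG ratio of 0.56, against 52.8% and 0.38 for the others there. Of all 4584 mostly masked intervals away from coding TSS, 3440 (73.8 to 76.3%) shared a 32-base word of their central 200 bp with 100 or more other intervals. For unmasked intervals away from coding TSS this was 2 of 8805.

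These intervals fell into a few families by shared words. Linking intervals that share a word gave a group of 2021 intervals (7.23% of the map, median width 587 bp) and another of 1302 (4.66%, 570.5 bp), both on all 19 chromosomes. The most frequent word of each group is shown, with CpG in capitals. It lay in the central 200 bp of 1096 of the 2021 intervals and of 807 of the 1302. The other members were linked through other words. The copy of the first is at chr1:4559913-4559944 and that of the second at chr1:4085260-4085291, each on the minus strand of GRCm38.
Group 1: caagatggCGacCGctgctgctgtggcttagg
Group 2: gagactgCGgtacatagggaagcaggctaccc

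The first word occurred 5063 times on chromosomes 1 to 19, and 4222 of these copies (83.4%, 82.3 to 84.4%) met an interval. The copies lay in 1524 intervals. Neighbouring copies within 1 kb of each other were a median of 212 bp apart (212 to 212 bp), so many of these copies stand in tandem arrays. The second word occurred 4819 times, 3310 copies (68.7%, 67.4 to 70.0%) met an interval, and neighbouring copies were 208 bp apart (208 to 208 bp). Reads from such copies cannot always be placed at a single site, the family of the repeats was not identified here, and whether input DNA gives intervals at the same copies was not tested.

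Chromosomes differed little in width and more in the density of intervals away from promoters. Median widths ranged from 659 bp (chromosome 6) to 785 bp (chromosome 19). The density of intervals away from coding TSS ranged from 4.02 per Mb on chromosome 1 to 8.79 per Mb on chromosome 8, with 7.04 per Mb on chromosome 11 as the next highest. The share of chromosome 8 intervals at a coding TSS was accordingly the lowest, 41.0%, where other chromosomes had 46.0 to 59.7%. Of 55 windows of 1 Mb with 25 or more such intervals, out of 2454, 10 lay on chromosome 8. The densest, from 84000001 to 85000000 on that chromosome, held 51, against a median of 4. Whether the cells carry extra copies of chromosome 8 was not tested.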

How the data were processed

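The authors deposited the H3K4me3 ChIP-seq of 2 samples as 1 list of interval positions in bp, with no score. The submitters' processing notes name Bowtie2 2.3.4.3, SAMtools 1.9, MACS2 2.1.2, HOMER and build mm10 without roles. The peak threshold, the use of the input and how the samples were joined are not given in the sources used here. No interval ended past a GRCm38 chromosome end.

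Intervals on chromosomes 1 to 19 were compared with GENCODE M21, with TSS taken from protein-coding transcripts of protein-coding genes (52092 TSS, 20722 genes), using Python 3.11.15, numpy 2.4.6, pandas 2.3.3 and scipy 1.17.1. A gene was marked if an interval came within 1 kb of a TSS. CpG ratios and soft masking were read from GRCm38.p6, a C57BL/6J genome, while the cells are 129Sv/J. RefSeq promoters matched 15696 of the 20722 genes by symbol. No test was made, since the list has no replicates or scores. The functions were tested on simulated data with planted intervals. The members and lists were chosen with earlier results of these data known. Genes named were those of the marker and alternative-promoter lists, the 10 most extreme by width, number of intervals, promoter shift or lincRNA width, and family members that depart from the rest where these are 5 or fewer. Other names are given as chosen after their values were seen, and 1 gene that the rule selects is not reported here.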

Additional observations from a re-analysis of the deposited data

Results flagged for a closer look

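Intervals of the H3K4me3 list outside chromosomes 1 to 19 entered none of the comparisons of the report, only a setting that added X and Y. The counts on X, Y and scaffolds were above 3, the limit used for flagging. No expected count was set, so passing that limit does not make a count unusual. Chromosome X held 1008 intervals, or 5.89 per Mb against 11.4 per Mb on chromosomes 1 to 19, and 339 of its 948 coding genes were marked (35.8%, 32.8 to 38.9%). Chromosome Y held 40 intervals, and 1 of its 183 coding genes was marked. Scaffolds held 69 intervals, 56 of them on a single scaffold, and the mitochondrial genome had 1 of 16299 bp. The sex of the cells and the copy number of these contigs were not tested.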

How the results depend on the processing

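No paired analysis was possible because both samples share a single list, and for the same reason no replicate could be left out. Depth is unknown, so an unmarked gene is one where no mark was detected. A value counted as moved if it left the 95% interval of the value reported, while the number of lists was judged by its ratio to the number reported. Under settings planned beforehand, 38 values of the main results moved and 28 did not. Under settings chosen after seeing the data, 3 moved and 17 did not. The difference in reach downstream and upstream kept its direction in each setting tried. The number of lists and families marked more often than all genes, 33 of 62, ranged from 25 to 34.

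Window of 500 bp: 49.3% of intervals were at a coding TSS, 8.24% of marked genes had 2 or more intervals and 13.6% of CpG-poor genes were marked. Window of 2500 bp: intervals at a TSS 57.7%, coding genes marked 63.9%, lincRNA genes away from coding TSS 9.47%, genes with some promoters marked 55.3%, 2 or more intervals 21.7%, CpG-poor 17.4%. Interval covering the TSS: 39.0%, 54.3%, 5.10%, 56.3%, 0% by construction and 10.6% in the same order, and CpG-rich 87.3%. Intervals at least as wide as the median: 73.5%, 51.3%, 4.46%, 52.4%, 4.03% and 9.68%, CpG-rich 85.3%, and the reach difference 624 bp. Intervals merged within 1 kb: 54.3% at a TSS, 2 or more 0.0925%, reach difference 552 bp, median width 963 bp. Basic transcripts: 50.4% at a TSS, some promoters marked 46.5%, CpG-poor 11.8%. With X and Y: coding genes 60.9%, lincRNA 7.19%, CpG-rich 96.8%. TSS joined within 5 kb or 1 kb: some promoters marked 67.9% or 55.0%. CpG over 500 bp: CpG-rich 95.8%, CpG-poor 15.4%. Chosen after seeing the data: without mostly masked intervals, 62.1% at a TSS and median width 803 bp, and without chromosome 8, 52.9% at a TSS.

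Of 310 values of single lists and families under other settings, 294 stayed on the same side of the share of all genes and 16, in 11 lists, changed side. These include the Hox, Wnt, Pax, Lhx and Isl and clustered histone genes where the interval had to cover the TSS, the last at 49.3% against 54.3%.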
